A study of Mus musculus with 18 samples.

Results

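The Bcl2 family genes were followed in endothelial cells of the mouse cortex, the cells that line its vessels, after an experimental stroke. The group holds 10 genes of the 21638 in the deposited table, taken by symbol: the survival genes Bcl2l1, Bcl2 and Mcl1, the pore-forming genes Bax and Bak1, and the genes of the BH3-only proteins Bcl2l11, Bbc3, Bad, Bid and Pmaip1. All 10 passed the filter on low counts, 10 or more counts in 3 or more libraries. The members were chosen by their levels in the deletion libraries against the occluded ones. Bcl2l1 leads the list because it was lower in the libraries of both deletion labels than in those of occluded mice without a deletion. The values of all members in those 2 comparisons are therefore given without a test. Tests of the deletion libraries in other comparisons share these libraries, so they are no independent support.

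Cells were sorted by antibody as CD31+ CD41- CD45- and their messenger RNA was sequenced in 18 libraries, 3 for each of 6 groups. Sham and MCAO mice were labelled wild type (WT), where MCAO stands for occlusion of the middle cerebral artery by surgery to mimic an ischaemic stroke, and each gave libraries from the ipsilateral (injured) and the contralateral (opposite) side. The remaining mice, labelled MCAO-Hdac2 ECKO or MCAO-Ezh2 ECKO, carried Hdac2lox/lox or Ezh2lox/lox alleles with Cdh5CreERT2, a recombinase that the promoter of the endothelial cadherin gene Cdh5 drives and tamoxifen switches on, and gave ipsilateral libraries only. All 6 groups, controls included, were labelled with tamoxifen at 75 mg/kg, given in 5 doses from day 0 to day 4, and cells were isolated on day 7. Hdac2 encodes a histone deacetylase and Ezh2 the methyltransferase of Polycomb repressive complex 2. Whether the 3 libraries of a group came from separate mice, and whether the libraries of both sides came from the same mice, is not given in the sources used here, so p-values measure the spread between these libraries, which may be technical. Sham mice with either deletion were not analysed here.

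Bcl2 family proteins decide whether the outer membrane of the mitochondrion stays closed. The survival proteins Bcl-xL (from Bcl2l1), Bcl-2 and Mcl-1 hold the pore formers Bax and Bak in check. The BH3-only proteins, which share a single short domain with the family, bind the survival proteins or the pore formers and tip the balance toward the pore, through which cytochrome c leaves and caspases are switched on. Endothelial cells depend on this balance when growth factor signals are withdrawn or oxygen is short. One count per gene cannot separate splice forms, such as the long and the short form of Bcl2l1, which act in opposite ways, or the forms of Bcl2l11.

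The promoters of 3 members are printed because these genes carried the contrasts described below: Bcl2l1, the lead gene, Bcl2, whose levels parted between the deletion labels, and Bcl2l11, which ran opposite to Bcl2l1 in several groups. Each sequence holds the 250 bases before the outermost annotated start, 5′ to 3′ on the strand of the gene, from RefSeq on GRCm38.p6. They lie at chr2:152831729-152831978 on the minus strand (Bcl2l1), chr1:106714291-106714540 on the minus strand (Bcl2) and chr2:128125788-128126037 on the plus strand (Bcl2l11). Capitals mark CpG in the first and second, and the letters GTAAACA in the third.
Bcl2l1: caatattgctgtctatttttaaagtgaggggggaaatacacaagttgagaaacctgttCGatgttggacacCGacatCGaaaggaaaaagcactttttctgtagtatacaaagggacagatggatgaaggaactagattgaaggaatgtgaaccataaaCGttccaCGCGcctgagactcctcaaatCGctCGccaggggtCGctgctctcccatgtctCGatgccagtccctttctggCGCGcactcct
Bcl2: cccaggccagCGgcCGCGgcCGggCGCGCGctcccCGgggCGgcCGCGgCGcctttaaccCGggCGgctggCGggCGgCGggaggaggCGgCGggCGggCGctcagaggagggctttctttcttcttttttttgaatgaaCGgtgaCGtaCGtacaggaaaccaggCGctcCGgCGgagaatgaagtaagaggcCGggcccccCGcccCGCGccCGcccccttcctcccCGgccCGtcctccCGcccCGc
Bcl2l11: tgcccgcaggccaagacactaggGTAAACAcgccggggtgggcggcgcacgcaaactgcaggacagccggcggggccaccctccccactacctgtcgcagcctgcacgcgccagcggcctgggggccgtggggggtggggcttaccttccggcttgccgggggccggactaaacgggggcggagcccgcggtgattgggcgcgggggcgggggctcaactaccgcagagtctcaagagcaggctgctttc

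The Bcl2l1 stretch held 12 CpG, more than 66.5% of the 32851 windows of the same length, and the Bcl2 stretch held 36, more than 97.4% of them. The median over all windows was 6. Windows of 9 members were used, 15 windows in all, and Pmaip1, on chromosome 18, was left out of this reading. The Mcl1 window held 26 CpG and the Bak1 window 8. The forkhead letters GTAAACA, read on both strands, were in 3.17% of all windows and in windows of Bcl2l11 and Bbc3. The E-box letters CACGTG were in 6.02% of all windows and in windows of Bax and Bbc3. The STAT letters TTCNNNGAA (7.02% of all windows), the ETS letters CCGGAAGT (2.88%) and the CHOP-ATF4 letters TGATGNAAT (0.82%) were in no window of these 9 members. These matches describe letters in a window. No binding or chromatin mark was measured in these files.

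Total counts per library ran from 25791401 to 57576255. A set of 10 endothelial marker genes summed to between 8770 and 10165 CPM (the count of a gene per 1000000 of the scaled library total) in 17 libraries and to 6879 CPM in MCAO contralateral replicate 1. That library and Ezh2 ECKO replicate 2 stood apart by their counts on olfactory and vomeronasal receptor genes. Per 1000000 of the unscaled library total these were 1889 and 2083, against 152 to 716 in the other libraries. Results that rest on the libraries that stood apart are given without them below. Red cell marker genes summed to between 71.0 and 671 CPM under the Ezh2 label and to between 49318 and 297800 CPM under the Hdac2 label. Neither targeted gene stood apart below MCAO ipsilateral under its label. Hdac2 stood at 57.5 to 87.9 CPM (mean 76.8) under its own label and at 68.2 to 96.1 CPM (mean 82.9) in MCAO ipsilateral, with overlap. Ezh2 stood at 8.41 to 19.7 CPM under its label, higher than the 4.44 to 7.84 CPM in MCAO ipsilateral, without overlap. That log2 difference was 1.05 ± 0.86, against the direction of the label. Counts over whole genes need not show the loss of single exons, which was not tested. Every direction given for a deletion therefore rests on the labels.

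Per kilobase of annotated exon, Mcl1 had the highest level of the 10 genes, with a mean of 74.7 CPM per kilobase over the 18 libraries and a range of 51.1 to 114. Bax followed at 41.5 CPM per kilobase, Pmaip1 at 30.4, Bad at 17.0 and Bcl2l1 at 10.7. The other 5 genes lay close together between 1.19 CPM per kilobase (Bcl2) and 1.67 CPM per kilobase (Bcl2l11). Mcl1 was above Bax, Bax above Pmaip1 and Bad above Bcl2l1 in 14 of 18 libraries each, and Bcl2l1 was above Bcl2l11 in 18 of 18. Other neighbours were less clearly ordered. Pmaip1 was above Bad in 10 libraries, Bcl2l11 above Bbc3 in 11, Bbc3 above Bak1 in 9, Bak1 above Bid in 8 and Bid above Bcl2 in 13.

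**Figure D1:**
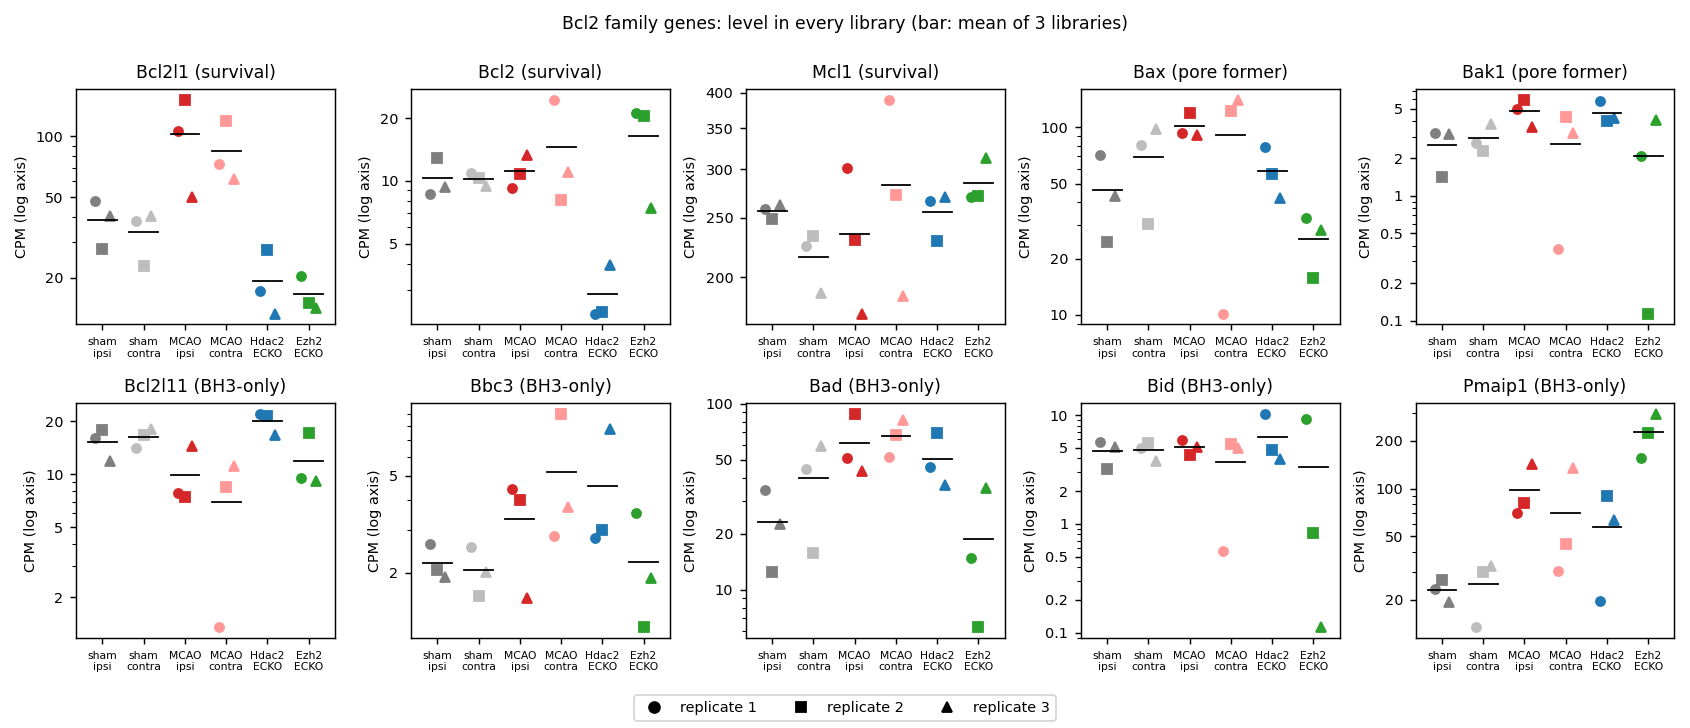
Level of each of the 10 Bcl2 family genes in every library, in CPM on a log axis, by group; marker shapes give the replicate number and bars the mean of 3 libraries. Bcl2l1 is highest in the MCAO groups and lowest in both deletion groups, Bcl2 is lowest in the Hdac2 ECKO group, and Pmaip1 is highest in the Ezh2 ECKO group.

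Bcl2l1 (chromosome 2, 152780668 to 152831728, minus strand), the gene of Bcl-xL, stood at 106, 152 and 50.1 CPM in the 3 MCAO ipsilateral libraries. In the libraries labelled Hdac2 ECKO it stood at 17.2, 27.3 and 13.3 CPM. In those labelled Ezh2 ECKO it stood at 20.4, 15.0 and 14.2 CPM. Every library of either deletion label was below every MCAO ipsilateral library, and the lowest MCAO library, replicate 3, was close to the sham ipsilateral libraries at 48.0, 27.7 and 40.3 CPM. The fitted log2 difference from MCAO ipsilateral was −2.41 ± 0.44 (SE) under the Hdac2 label, 5.33-fold lower, and −2.63 ± 0.44 under the Ezh2 label, 6.20-fold lower. Both comparisons share the MCAO libraries. Both labels also stood below sham ipsilateral, with no overlap, by a log2 difference of −1.01 ± 0.42 (Hdac2) and −1.23 ± 0.42 (Ezh2). Neither was called by edgeR (adjusted p 0.589 and 0.556). The highest Hdac2 library, at 27.3 CPM, almost met the lowest sham ipsilateral library, at 27.7 CPM. The share of all genes without overlap is not given for these comparisons.

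Calls in these comparisons are counts only, since the comparisons chose the list, and nothing is read from them. Under the Ezh2 label 1 of 10 members, Bcl2l1, had an adjusted p under 0.05 by edgeR's quasi-likelihood test, where 1.46% of 17094 genes had one. Under the Hdac2 label 0 of 10 had one, beside 0.0117% of all genes, and 2 of 10 had an unadjusted p under 0.05, beside 9.85%. DESeq2 called 2 of 10 there, beside 244 of the 17094 genes, and limma's voom 0. Groups did not overlap for 4 of 10 members under the Hdac2 label, beside 19.9% of all genes, and for 4 of 10 under the Ezh2 label, beside 29% of all genes. The log2 difference under the Ezh2 label was −2.24 without MCAO ipsilateral replicate 2, −2.60 without Ezh2 ECKO replicate 2, the library that stood apart, and −2.30 with the receptor background as a covariate. With library totals counted without red cell genes the values were −2.43 under the Hdac2 label and −2.62 under the Ezh2 label.

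Marker sums of other cells also lay apart from MCAO ipsilateral under the Ezh2 label, for 4 of 10 lists, and under the Hdac2 label for 0 of 10. Under the Ezh2 label platelet markers summed to 19.6 to 29.8 CPM against 35.2 to 40.8 CPM in MCAO, and neutrophil or monocyte markers to 4.02 to 5.6 CPM against 8.97 to 13.1 CPM. Microglia or macrophage markers summed to 54.7 to 61.4 CPM against 78.8 to 86.5 CPM, and red cell markers to at most 671 CPM against at least 38255 CPM. Their part in the members' values was not tested. In sorted bulk samples, fewer cells of a kind and less RNA per cell cannot be told apart.

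Occlusion without a deletion gave differences of the other sign. On the opposite side, whose libraries the choice of the list did not use, Bcl2l1 stood at 73.4, 119 and 61.5 CPM in MCAO and at 38.1, 22.9 and 40.1 CPM in sham. The groups did not overlap, and the log2 difference was 1.33 ± 0.42, with an adjusted p of 0.92 by edgeR, and 1.44 without replicate 1, the MCAO library that stood apart. On the injured side the log2 difference from sham was 1.41 ± 0.43, given without a test because it rests on the same MCAO libraries. The lowest MCAO library, at 50.1 CPM, was just above the highest sham library, at 48.0 CPM. Between the sides of MCAO brains the log2 difference was 0.28 ± 0.42 with an adjusted p of 1.0. The direct comparison of the deletion labels gave 0.22 ± 0.42 with an adjusted p of 0.858 by edgeR. Bcl2l1 was chosen because it was lower under both labels, so no conclusion on a difference between them is drawn.

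Bcl2 (chromosome 1, 106538178 to 106714274, minus strand), which encodes the founding survival protein of the family, separated the labels. It stood at 2.31, 2.35 and 3.94 CPM under the Hdac2 label and at 21.2, 20.5 and 7.38 CPM under the Ezh2 label. MCAO ipsilateral libraries held 9.25, 10.8 and 13.3 CPM and sham ipsilateral libraries 8.66, 12.9 and 9.39 CPM. All 3 Hdac2 libraries were below all other 15 libraries of the series. The log2 difference between the labels, Hdac2 minus Ezh2, was −2.51 ± 0.58, 5.69-fold, with an adjusted p of 0.091 by edgeR over all genes (range over the alternatives 0.000206 to 0.454), and DESeq2 called it. Against MCAO ipsilateral the log2 difference was −1.96 ± 0.57 under the Hdac2 label and 0.55 ± 0.55 under the Ezh2 label, both given without a test. Against sham ipsilateral the Hdac2 value was −1.85 ± 0.57 with an adjusted p of 0.374 and the Ezh2 value 0.66 ± 0.55 with an adjusted p of 0.943. The libraries of both labels took part in the choice of the members, so the p-values and the call for Bcl2 are no independent support.

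Mcl1 (chromosome 3, 95658788 to 95663176, plus strand), whose short-lived product guards against Bak, had a narrow range. It lay between 175 and 389.6 CPM over all 18 libraries. The group means were 257 ± 7.11 CPM (SD, n = 3) in sham ipsilateral, 235 ± 63.8 in MCAO ipsilateral, 255 ± 22.8 under the Hdac2 label and 285 ± 24.0 under the Ezh2 label. Its log2 difference from MCAO ipsilateral was 0.12 ± 0.29 under the Hdac2 label, −0.12 without MCAO ipsilateral replicate 3, and 0.28 ± 0.29 under the Ezh2 label. On the opposite side MCAO minus sham was 0.39 ± 0.29 with an adjusted p of 0.92 by edgeR, and 0.11 without MCAO contralateral replicate 1, the library that stood apart and held the highest value, 389.6 CPM.

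As a share of the summed level per kilobase of these 3 survival genes, Bcl2l1 made up 20.5%, 32.6% and 17.2% in the MCAO ipsilateral libraries. It made up 12.0%, 7.53% and 10.1% in sham ipsilateral. The share was 4.56%, 8.12% and 3.51% under the Hdac2 label and 5.18%, 3.85% and 3.25% under the Ezh2 label. Bcl2 made up between 0.308% and 0.522% under the Hdac2 label and between 0.845% and 2.69% under the Ezh2 label. Mcl1 held the rest, from 66.3% in MCAO ipsilateral replicate 2 to 96.0% in Hdac2 ECKO replicate 3. These shares restate the levels above, so they carry no test. They also depend on the length used, here all exon bases: 4586 for Bcl2l1, 9157 for Bcl2 and 3418 for Mcl1. The longest transcripts hold 2568, 7191 and 3418 bases, and by these the Bcl2l1 share would be larger in every library.

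**Figure D2:**
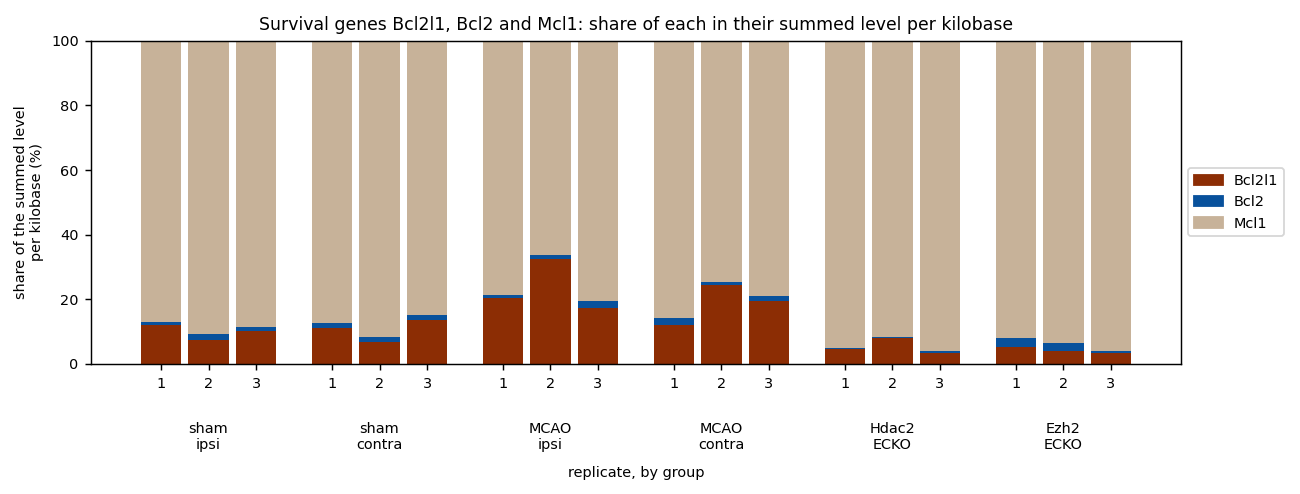
Share in percent of Bcl2l1, Bcl2 and Mcl1 in their summed level per kilobase, 1 bar for each of the 18 libraries by group and replicate number. The Bcl2l1 share lies between 17.2% and 32.6% in MCAO ipsilateral and between 3.25% and 8.12% in the libraries of both deletion labels.

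Bax (chromosome 7, 45461697 to 45466898, minus strand), a pore former that moves from the cytosol to the mitochondrion, stood at 93.3, 119.5 and 91.3 CPM in MCAO ipsilateral and at 71.1, 24.5 and 43.1 CPM in sham ipsilateral. It stood at 78.4, 56.3 and 41.9 CPM under the Hdac2 label and at 32.7, 15.7 and 28.3 CPM under the Ezh2 label. The MCAO ipsilateral libraries were above all sham ipsilateral libraries and above all libraries of either deletion label. The log2 difference of MCAO from sham was 1.13 ± 0.62 with an adjusted p of 0.717 by edgeR, and 0.42 with the receptor background as a covariate. The differences of the deletion labels from MCAO were −0.78 ± 0.61 (Hdac2) and −1.99 ± 0.63 (Ezh2), the latter −0.65 with the receptor background as a covariate and −1.71 without both libraries that stood apart. Between the labels, Hdac2 minus Ezh2, it was 1.20 ± 0.62 with an adjusted p of 0.484, and 0.34 with that covariate. On the opposite side Bax was at 10.2, 122 and 140.4 CPM in MCAO, and the low value belongs to replicate 1, the library that stood apart. Of the exon bases of Bax, 12.2% are shared with Gm45808 on the same strand.

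Bak1 (chromosome 17, 27019810 to 27029009, minus strand), the pore former that sits in the mitochondrial membrane, was low throughout, at 5.91 CPM or less. It stood at 4.99, 5.91 and 3.59 CPM in MCAO ipsilateral and at 3.20, 1.43 and 3.13 CPM in sham ipsilateral, without overlap. Its lowest values were in the libraries that stood apart, 0.377 CPM (a count of 12) in MCAO contralateral replicate 1 and 0.114 CPM (a count of 4) in Ezh2 ECKO replicate 2. The log2 difference of the Ezh2 label from MCAO was −1.21 ± 0.96, −0.62 without both of those libraries, −0.05 with the receptor background as a covariate and −2.18 without Ezh2 ECKO replicate 3. Of its exon bases, 25.5% overlap Ggnbp1 on the other strand, and the strand setting of the counting is not given in the sources used here.

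Among the BH3-only genes, Pmaip1, which encodes Noxa, a partner of Mcl-1, had the highest levels under the Ezh2 label. It stood at 155, 224 and 296 CPM there and at 19.5, 89.8 and 63.0 CPM under the Hdac2 label. MCAO ipsilateral libraries held 70.5, 80.6 and 142 CPM, and sham ipsilateral libraries 23.5, 26.5 and 19.4 CPM. The Ezh2 libraries were above all other 15 libraries of the series. Against sham ipsilateral Pmaip1 rose by a log2 difference of 3.28 ± 0.58, 9.72-fold and higher in 3 of 3 libraries, with an adjusted p of 0.0295 by edgeR. It was the 1 member of 10 called there, where 0.041% of all genes were called. The Ezh2 libraries took part in the choice of the members, so the call is no independent support. The call was lost with library totals counted without red cell genes (adjusted p 0.0699), without sham ipsilateral replicate 1 (0.291), 2 (0.162) or 3 (0.254), and without Ezh2 ECKO replicate 2 (0.0607) or 3 (0.163), and the log2 difference lay between 3.03 and 3.49 in all 17 fits. Of 10 marker lists 3 did not overlap between these groups. Red cell markers were scarcer in the Ezh2 libraries than in sham ipsilateral (19219 to 58987 CPM), neutrophil or monocyte markers were lower (4.02 to 5.6 against 7.04 to 21.7 CPM), and microglia or macrophage markers higher (54.7 to 61.4 against 36.9 to 44.5 CPM). Their part in the result was not tested.

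Levels of Pmaip1 were also higher after occlusion alone, without passing the test. The log2 difference of MCAO from sham was 2.08 ± 0.55 on the injured side, with no overlap and an adjusted p of 0.49 by edgeR. It was 1.48 ± 0.54 on the opposite side, where MCAO libraries held 30.3, 44.8 and 135 CPM and sham libraries 13.4, 29.7 and 32.5 CPM, with an adjusted p of 0.92, and 0.57 without MCAO contralateral replicate 3. Replicate 3 was the highest MCAO library on both sides, whereas for Bcl2l1 it was the lowest on both. The label difference, Hdac2 minus Ezh2, was −1.97 ± 0.55 with no overlap and an adjusted p of 0.161 (range over the alternatives 0.0127 to 0.341). DESeq2 called it, which is no independent support either, since the libraries of both labels took part in the choice. From MCAO ipsilateral the log2 difference was 1.21 ± 0.54 under the Ezh2 label and −0.76 ± 0.53 under the Hdac2 label. Against sham the Hdac2 value was 1.31 ± 0.54 with an adjusted p of 0.567.

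Bcl2l11 (chromosome 2, 128126038 to 128162547, plus strand), which encodes Bim, a binder of all survival proteins, ran opposite to Bcl2l1 after occlusion and under the Hdac2 label. It stood at 7.84, 7.46 and 14.4 CPM in MCAO ipsilateral and at 16.0, 17.9 and 11.9 CPM in sham ipsilateral. On the opposite side it stood at 1.35, 8.45 and 11.2 CPM in MCAO and at 14.1, 16.8 and 18.0 CPM in sham, without overlap. The log2 differences of MCAO from sham were −0.62 ± 0.58 (adjusted p 0.817 by edgeR) on the injured and −1.22 ± 0.59 (adjusted p 0.92) on the opposite side, the latter −0.71 without MCAO contralateral replicate 1. Under the Hdac2 label it stood at 22.1, 21.4 and 16.8 CPM, above all 3 MCAO ipsilateral libraries, a log2 difference of 1.02 ± 0.59. Under the Ezh2 label it stood at 9.54, 17.1 and 9.17 CPM. Hdac2 minus Ezh2 was 0.75 ± 0.59 with an adjusted p of 0.697.

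Bad (chromosome 19, 6941861 to 6951899, plus strand), whose product binds Bcl-xL and Bcl-2 and is silenced by phosphorylation under growth factor signals, stood at 51.3, 88.4 and 43.6 CPM in MCAO ipsilateral and at 34.5, 12.4 and 22.4 CPM in sham ipsilateral. It stood at 45.6, 69.6 and 36.6 CPM under the Hdac2 label and at 14.8, 6.26 and 35.3 CPM under the Ezh2 label. MCAO ipsilateral did not overlap sham ipsilateral or the Ezh2 label, and overlapped the Hdac2 label. The log2 difference of MCAO from sham was 1.40 ± 0.56 with an adjusted p of 0.645 by edgeR on the injured side and 0.74 ± 0.55 with an adjusted p of 0.92 on the opposite side. The Ezh2 label differed from MCAO by −1.70 ± 0.56, and by −2.58 without Ezh2 ECKO replicate 3. Its lowest value, 6.26 CPM, belongs to Ezh2 ECKO replicate 2, the library that stood apart. Over 17 fits, those without that library among them, the difference ran from −2.58 to −1.16. Hdac2 minus Ezh2 was 1.43 ± 0.56 with an adjusted p of 0.331 by edgeR, and 2.26 without Ezh2 ECKO replicate 3. Over 17 fits it ran from 0.995 to 2.26. Hdac2 minus sham was 1.13 ± 0.55 with an adjusted p of 0.72. Of its exon bases, 20.5% overlap Gpr137 on the other strand.

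Bbc3 (chromosome 7, 16308393 to 16318205, plus strand), which encodes Puma, a p53 target, lay between 1.19 and 9.01 CPM over all libraries. On the opposite side it stood at 2.82, 9.01 and 3.73 CPM in MCAO and at 2.55, 1.61 and 2.02 CPM in sham, without overlap, and the log2 difference was 1.33 ± 0.79 with an adjusted p of 0.92, and 0.66 without MCAO contralateral replicate 2. Bid (chromosome 6, 120891930 to 120916853, minus strand), which links death receptors to the mitochondrion once a caspase has cut it, lay between 0.112 and 10.3 CPM. Its lowest value was a count of 4 in Ezh2 ECKO replicate 3, next to 9.14 CPM in replicate 1 of the same label. Of its exon bases, 17.7% overlap Bcl2l13 on the other strand. At these levels neither gene separated MCAO from sham on the injured side, where MCAO stood at 4.42, 3.99 and 1.58 CPM for Bbc3 and at 5.88, 4.32 and 5.12 CPM for Bid. Bbc3 under the Hdac2 label, at 2.77, 3.01 and 7.82 CPM, did not overlap sham ipsilateral, at 2.64, 2.05 and 1.93 CPM. That log2 difference was 1.04 ± 0.78 with an adjusted p of 0.964 by edgeR.

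**Figure D3:**
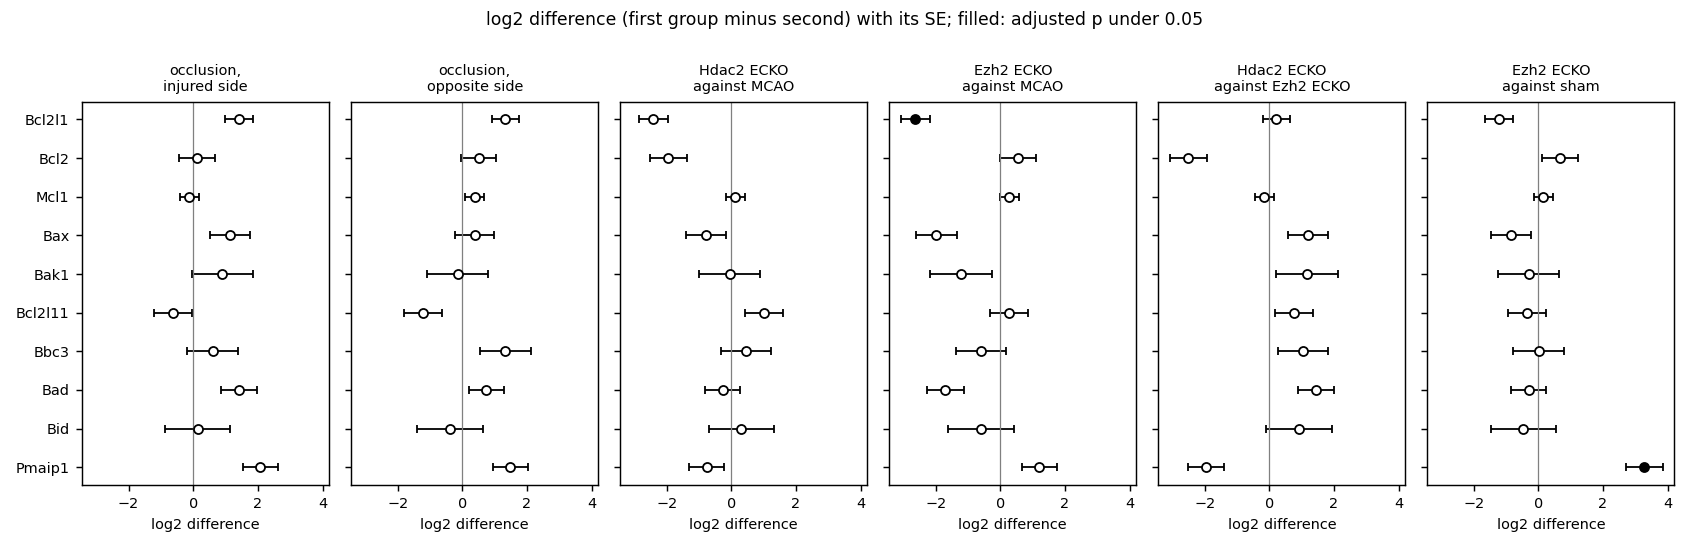
Log2 difference of the first-named group from the second for each of the 10 genes in 6 comparisons, with its SE; filled points passed an adjusted p under 0.05 by edgeR. The filled points are Bcl2l1 for the Ezh2 label against MCAO (a comparison that chose the list) and Pmaip1 for the Ezh2 label against sham.

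Counted over the 10 members, occlusion gave 0 calls by edgeR on the injured side, beside 0% of all 17094 genes. There 3 of 10 members had an unadjusted p under 0.05, beside 7.08% of all genes, and 5 of 10 had groups that did not overlap, all of them higher in MCAO, beside 27.7% of all genes. The median log2 difference was 0.75 over the members and −0.09 over all genes. Bcl2l1 is among the 3 and among the 5, and the MCAO ipsilateral libraries took part in its choice, so the counts are a description. DESeq2 called 0 members, beside 69 of the 17094 genes. Voom with library weights called Bax, Bad and Pmaip1 beside Bcl2l1, and its count over all genes is not given here. A fit of only the groups compared called Pmaip1. On the opposite side 0 members were called, beside 0% of all genes, 2 had an unadjusted p under 0.05, beside 4.41%, and 3 did not overlap, beside 9.65%. DESeq2 called 0 members there, beside 26 of the 17094 genes, and voom called 0.

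Over both sides, 0 members were called by edgeR, beside 0.152% of all genes, and 4, Bcl2l1 among them, had an unadjusted p under 0.05, beside 9.09%. The log2 difference of Pmaip1 was 1.78 ± 0.39 with an adjusted p of 0.0678 (range over the alternatives 0.00156 to 0.242). That of Bcl2l1 was 1.37 ± 0.30, that of Bad 1.07 ± 0.39 with an adjusted p of 0.348, that of Bbc3 0.96 ± 0.55 (0.651), that of Bax 0.76 ± 0.43 (0.651) and that of Bcl2l11 −0.92 ± 0.42 (0.506). Groups did not overlap for 1 member, Bcl2l1, beside 1.42% of all genes. Pmaip1 was called by DESeq2, which called 337 of the 17094 genes there. It was also called by edgeR without MCAO contralateral replicate 1 alone, with a log2 difference of 1.97 and an adjusted p of 0.0118. For Bcl2l1 the value over both sides is given without a test, since it holds the MCAO ipsilateral libraries. Both sides may come from the same mice, in which case these p-values are too small.

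Sums of cell type markers also differed with the occlusion. Of 10 marker lists, 4 had sums that did not overlap between MCAO and sham on the injured side. Pericyte or smooth muscle markers summed to 38.7 to 89.5 CPM in MCAO and 99.1 to 151 CPM in sham, and microglia or macrophage markers to 78.8 to 86.5 CPM and 36.9 to 44.5 CPM. Platelet markers summed to 35.2 to 40.8 CPM and 21.9 to 27.3 CPM, and endothelial markers to 8878 to 9207 CPM and 9460 to 10013 CPM. Contralaterally 2 lists did not overlap, both lower in MCAO. Pericyte or smooth muscle markers summed to 15.2 to 61.1 CPM there in MCAO and 89.1 to 174 CPM in sham, and astrocyte markers to 38.0 to 54.4 CPM and 58.9 to 94.4 CPM. In MCAO ipsilateral the only marker of these lists with no count in any library was the lymphocyte gene Cd4. Their part in the members' values was not tested.

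The sides of one treatment were compared next. Within MCAO 0 members were called by edgeR, DESeq2 or voom, beside 0% of all genes, and 0 had an unadjusted p under 0.05, beside 3.08%. The log2 differences ran from −0.64 ± 0.78 (Bbc3) to 0.88 ± 0.95 (Bak1). Within sham 0 members were called by the same 3 tools, beside 0% of all genes, and 0 had an unadjusted p under 0.05, beside 1.85%. There they ran from −0.79 ± 0.55 (Bad) to 0.25 ± 0.29 (Mcl1).

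The direct comparison of the deletion labels called 0 of 10 members by edgeR, beside 0.123% of all genes, and 0 by voom. Bcl2 and Pmaip1 were the 2 members DESeq2 called, beside 659 of all genes tested. The libraries of both labels took part in the choice of the members, so the counts between them or against sham are a description. An unadjusted p under 0.05 was reached by 3 members, beside 11.2% of all genes, and 5 did not overlap, beside 12.1%. Bcl2, Mcl1 and Pmaip1 were lower, and Bax and Bad higher, under the Hdac2 label in every library. For Mcl1 the highest Hdac2 library, at 270.1 CPM, almost met the lowest Ezh2 library, at 270.2 CPM. Its log2 difference was −0.16 ± 0.29 with an adjusted p of 0.856 by edgeR. The red cell, neutrophil or monocyte, and microglia or macrophage marker sums were also higher in every Hdac2 library than in every Ezh2 library, and their part was not tested. Against sham ipsilateral the Hdac2 label gave 0 members called by edgeR, beside 0% of all genes, and 0 by voom. An unadjusted p under 0.05 by edgeR was reached by 3 members, beside 7.14%. DESeq2 called Bcl2, beside 246 of all genes tested. For Bax, Ezh2 minus sham was −0.85 ± 0.62 with an adjusted p of 0.925, and −0.23 with the receptor background as a covariate.

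The rest of the death pathway was read from 7 lists of genes around the family. Of the 100 distinct genes tested, 0 were called by edgeR on the injured side, 0 under the Hdac2 label and 2 under the Ezh2 label. Of all genes, 0%, 0.0117% and 1.46% were called there. The 2 under the Ezh2 label were both lower, and of all 250 genes called there 39 were higher. An unadjusted p under 0.05 was reached by 17, 12 and 29 of the 100 genes, beside 7.08%, 9.85% and 19.2% of all genes. DESeq2 called 0, 2 and 16 of them, beside 69, 244 and 1642 of the 17094 genes. Voom called 20, 1 and 4, and its counts over all genes are not given here. Counts of 0 given below therefore hold for edgeR in the fit of all groups and not for every tool. Values under the labels come from the comparisons that chose the members and are again given without a p. In the list of other Bcl2 family members, 13 of 15 genes could be tested, 10 of the 13 had a log2 difference above 0 on the injured side and the median was 0.57, beside −0.09 over all genes. Under the Hdac2 and Ezh2 labels its medians were −0.68 and −0.41, beside 0.11 and 0.17 over all genes. Its gene with the smallest p was Bnip3, a mitochondrial gene known to respond to low oxygen, at 648, 552 and 302 CPM in MCAO and 140.2, 294 and 135.5 CPM in sham (log2 difference 1.40 ± 0.38, adjusted p 0.496). Under the Ezh2 label Bnip3 stood at 181, 159.8 and 235 CPM, a log2 difference of −1.38 ± 0.38 from MCAO. Under the Hdac2 label it stood at 364, 488 and 649 CPM, in the range of MCAO. The other small-p gene of this list, Hrk under the Hdac2 label, had counts of 4, 4 and 0, against 0 in each MCAO ipsilateral library, and its level is not read.

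Of the 15 genes of p53 and its targets, 1 was called under the Ezh2 label, beside 1.46% of all genes. This was Cdkn1a, the gene of the cell cycle inhibitor p21. It stood at 34.7, 24.9 and 16.7 CPM under the Ezh2 label and at 196, 415 and 47.2 CPM in MCAO, a log2 difference of −3.11 ± 0.64. As for Bcl2l1, MCAO replicate 3 was at the level of sham ipsilateral (75.2, 38.9 and 50.1 CPM), and the call held in 10 of the 17 fits run. The fits that lost it included those without MCAO replicate 1 (−3.19) or 2 (−2.26) and without Ezh2 ECKO replicate 2 (−3.13) or 3 (−2.92). The fit with the receptor background as a covariate (−2.37) also lost it, and these were not all. The list's median was −0.66 there, beside 0.17 over all genes, and 0.32 on the injured side. Fas, a death receptor counted in this list and in that of the death receptor pathway, was at 991, 889.8 and 254 CPM in MCAO ipsilateral and at 239, 295 and 243 CPM in sham (log2 difference 1.46 ± 0.42, adjusted p 0.509). It stood at 218, 261 and 202 CPM under the Hdac2 label, a log2 difference from MCAO of −1.65 ± 0.43, and at 249.8, 299.6 and 166 CPM under the Ezh2 label, −1.58 ± 0.43. Neither was called by edgeR in the fit of all groups. The death receptor list had 0 of 14 genes called by edgeR in any of these 3 comparisons, 1, 2 and 3 had an unadjusted p under 0.05, and its medians were 0.32, −0.22 and 0.01 for the injured side, the Hdac2 label and the Ezh2 label.

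Of the kinases and ligases that act on Bcl2 family proteins, 14 of 15 were tested. Under the Ezh2 label 1 was called, beside 1.46% of all genes. This was Akt1, a kinase of growth factor signalling that phosphorylates Bad. It stood at 19.1, 5.15 and 8.38 CPM under the Ezh2 label and at 34.2, 51.4 and 42.4 CPM in MCAO, a log2 difference of −1.97 ± 0.47. The call held in 8 of the 17 fits run. The fits that lost it included those without any 1 of the 3 MCAO libraries and without Ezh2 ECKO replicate 2 (−1.66) or 3 (−1.85), and were not these alone. The list's median there was 0.53. Mapk8, the stress kinase JNK1, had the smallest p of the list under the Hdac2 label, at 25.7, 44.6 and 68.3 CPM against 20.3, 11.1 and 22.55 CPM in MCAO (log2 difference 1.36 ± 0.45). Ywhaz, a 14-3-3 protein that holds phosphorylated Bad in the cytosol, had it on the injured side, with a log2 difference of 0.82 ± 0.30 and an adjusted p of 0.617.

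Of the 19 genes of the apoptosome, caspases and their inhibitors, 0 were called by edgeR in these 3 comparisons, and 2, 0 and 3 had an unadjusted p under 0.05 for the injured side, the Hdac2 label and the Ezh2 label. The medians were −0.11, 0.20 and 0.27. Endog, a nuclease of the mitochondrial space, had the smallest p on the injured side (log2 difference 1.74 ± 0.80, adjusted p 0.683, and 0.95 with the receptor background as a covariate). Diablo, an antagonist of the caspase inhibitors, had it under both labels, with log2 differences of −1.21 ± 0.58 (Hdac2, −1.91 without Hdac2 ECKO replicate 3) and −1.88 ± 0.59 (Ezh2). In the list of 11 mitochondrial outer membrane partners 0 were called by edgeR in the fit of all groups, 2, 1 and 5 had an unadjusted p under 0.05, and the medians were 0.56, −0.24 and −0.43. Itpr1, a calcium channel of the endoplasmic reticulum that Bcl-2 binds, stood at 27.8, 15.4 and 37.8 CPM in MCAO, below all sham libraries at 58.0, 83.6 and 60.6 CPM (log2 difference −1.32 ± 0.41, adjusted p 0.509). Under the Hdac2 label Itpr1 stood at 46.5, 63.2 and 78.6 CPM, a log2 difference of 1.22 ± 0.41 from MCAO. Under the Ezh2 label it stood at 96.5, 54.2 and 54.9 CPM, a log2 difference of 1.34 ± 0.41. Bcap31, a partner of Bcl-2 at the same membrane, had the smallest p under the Ezh2 label, −1.49 ± 0.39.

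Of the 16 transcriptional regulators of Bcl2 family genes, 0 were called by edgeR in these 3 comparisons, and 5, 2 and 4 had an unadjusted p under 0.05. Ddit3, the stress factor CHOP, stood at 80.05, 101 and 63.5 CPM in MCAO ipsilateral, above all sham libraries at 36.8, 19.1 and 31.8 CPM (log2 difference 1.48 ± 0.46, adjusted p 0.509). Jun, an AP-1 subunit, had the smallest p under the Hdac2 label (1.05 ± 0.41), and its difference under the Ezh2 label was 1.36 ± 0.41. Ets1, a factor of endothelial cells, had it under the Ezh2 label, at 576, 266 and 698 CPM against 237, 151.5 and 261 CPM (1.25 ± 0.35). The medians were 0.17, 0.00 and 0.31 for the injured side, the Hdac2 label and the Ezh2 label.

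**Figure D4:**
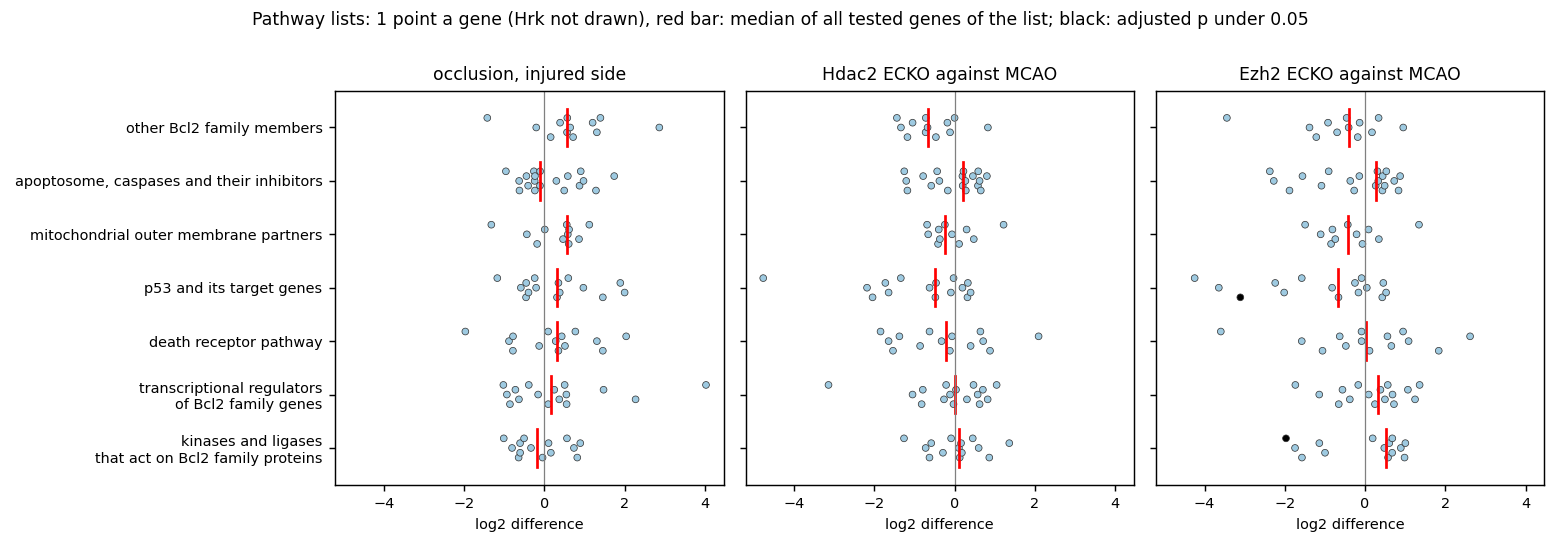
Log2 difference of every tested gene of 7 lists around the Bcl2 family in 3 comparisons, 1 point a gene; the red bar is the list's median and black points passed an adjusted p under 0.05 by edgeR. The black points are Cdkn1a and Akt1, both for the Ezh2 label against MCAO, and Hrk is left out of the points because its counts were at most 20.

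The pattern of Bcl2l1 was compared with that of 7814 genes whose mean reached 10 CPM, by Pearson's r of log2(CPM + 1) over the 18 libraries. The 5 genes most like it were Lims2, an adaptor of integrin signalling (r 0.94, Spearman's rank correlation 0.928), Ccnd3, which encodes cyclin D3 (0.937, 0.922), Stip1, a co-chaperone of Hsp70 and Hsp90 (0.921, 0.876), Mcf2l (0.916, 0.905), and Eftud2, a GTPase of the spliceosome (0.912, 0.884). Lims2 and Ccnd3 stayed among the first 5 by rank correlation and also without both libraries that stood apart. Mean levels of Lims2 were 63.2 CPM in sham ipsilateral, 167 in MCAO ipsilateral, 39.3 under the Hdac2 label and 30.6 under the Ezh2 label, the same order as Bcl2l1. Such values rest on group differences that all points share, and libraries share depth and background. With group means removed the 5 were Gm20481 (r 0.924), Trim47 (0.896), Tmem252 (0.885), Rassf1 (0.879) and Dusp23 (0.868), none of them among the first 5 above. Among the members over the same threshold, r with Bcl2l1 over the 18 libraries was 0.607 for Bad, 0.507 for Bax, 0.243 for Bcl2, −0.0748 for Mcl1, −0.168 for Pmaip1 and −0.528 for Bcl2l11. After removal of the group means these values were 0.534, 0.38, −0.291, 0.182, −0.3 and −0.179, so Bcl2 and Mcl1 changed sign.

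**Figure D5:**
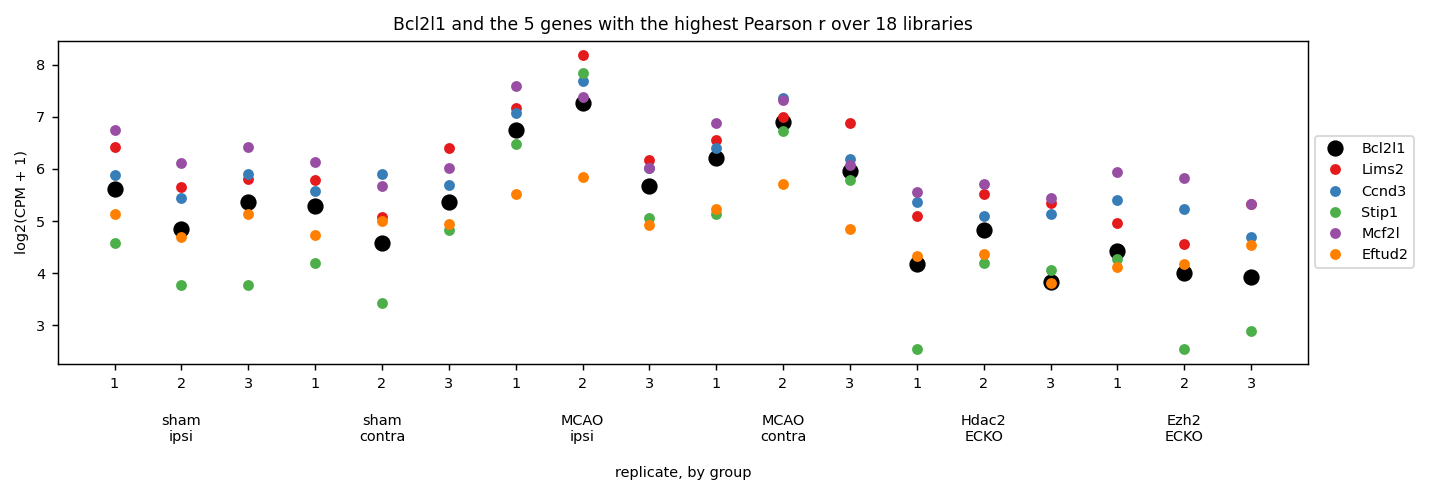
Level of Bcl2l1 (large black points) and of the 5 genes with the highest Pearson's r with it, as log2(CPM + 1) in each of the 18 libraries by group. All 6 genes are highest in MCAO ipsilateral replicate 2 or in replicate 1 of that group, and lowest in a library of the deletion labels.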

How the data were processed

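The members and the gene lists were chosen with earlier results of these data known, and the comparisons of the deletions with sham were added later. The submitters' processing notes name FastQC, cutadapt, STAR, featureCounts, DESeq2 and mm10, without roles or versions. The authors deposited whole-number counts per gene, called normalized by the table's name. They were treated as unscaled counts because totals differed and 77.3% to 89.4% of counts from 1 to 20 were even in each library, a pattern that scaling would break. If both reads of a pair were counted, counts overstate the number of fragments. A total of 0 sample columns went unused.

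Each comparison was tested with edgeR 4.0.16 (R 4.3.3), by quasi-likelihood F-tests after TMM scaling, in 1 fit of 6 group means to 18 libraries over 17094 genes that reached 10 counts in 3 or more libraries. Adjusted p-values are Benjamini-Hochberg values over those genes, two-sided, called under 0.05. The SE is the size of the log2 difference divided by the square root of F. CPM were computed from TMM-scaled totals. Alternatives were DESeq2 1.42.0, limma 3.58.1 (voom with library weights), other scaling factors and filters, fewer groups in the fit, a replicate block, a covariate of receptor background and leaving out libraries. Bcl2l10 and Bcl2l14 were not tested, and March5 was not matched. All comparisons of one group share its libraries. The fit was also run on simulated counts drawn around a common mean per gene, with set changes added. These held no library that stood apart, so nothing is read from that run. Coordinates and exon lengths are from GENCODE M21 (GRCm38), which gave the deposited lengths of all 10 members. A floor of 3 counts was 0.0521 to 0.116 CPM, and depth covers counting error only. Named genes are the 10 members, Hdac2 and Ezh2, from each list the called genes (at most 4) or else the gene with the smallest p, and the 5 genes most like Bcl2l1, also after group means are removed.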

Additional observations from a re-analysis of the deposited data

How the results depend on the processing

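Counts of the 10 members called at an adjusted p under 0.05 moved with the tool. Counts for the labels against MCAO come from the comparisons that chose the list, and nothing is read from them. DESeq2 gave 2 for occlusion on both sides, 2 under the Hdac2 label, 2 under the Ezh2 label, 2 between the labels and 1 for the Hdac2 label against sham. Over all genes tested it called 337, 244, 1642, 659 and 246 in these comparisons. RLE factors gave 2 for occlusion on both sides. Voom with library weights gave 4 on the injured side and 4 on both sides. A fit of only the groups compared gave 1 on the injured side and 2 under the Ezh2 label. The receptor background as a covariate gave 1 on both sides, 1 under the Hdac2 label and 0 under the Ezh2 label. Totals without red cell genes gave 0 for the Ezh2 label against sham. Leaving out both libraries that stood apart, an alternative chosen after seeing the data, gave 2 on both sides and 2 under the Ezh2 label. Leaving out 1 library at a time gave 0 to 2 on both sides (1 without MCAO ipsilateral replicate 3, 2 without MCAO contralateral replicate 1), 0 to 1 under each label against MCAO (1 under the Hdac2 label without MCAO ipsilateral replicate 3, and 0 under the Ezh2 label without MCAO ipsilateral replicate 1 or 2 or Ezh2 ECKO replicate 2 or 3), 0 to 1 for the Ezh2 label against sham, and 0 in the other comparisons. Log2 differences whose sign turned in that way were those of Mcl1 under the Hdac2 label (−0.12 without MCAO ipsilateral replicate 3), of Bcl2l1 between the labels (−0.18 to 0.41, negative without Hdac2 ECKO replicate 2), of Bcl2l1 between the sides of MCAO (−0.12 to 0.62, negative without ipsilateral replicate 2) and of Bbc3 there (−0.95 to 0.025, positive without contralateral replicate 2). The causes were not tested. RLE factors moved the median of all genes from 0.17 to 0.36 under the Ezh2 label and from −0.05 to −0.21 between the sides of MCAO, and turned no member's sign given here. With the replicate number as a block 1 member was called under the Ezh2 label and 1 for it against sham, as without the block. Deviations of same-numbered libraries from their group means had an r from −0.439 to 0.411 (median −0.049) over 45 pairs of all groups. The numbers were not taken as pairs. Between the sides of one treatment, same-numbered libraries gave r of 0.376, 0.35 and −0.127 in sham, and 0.294, 0.393 and 0.035 in MCAO. Differently numbered ones ran from −0.508 to 0.361 in sham and from −0.381 to 0.224 in MCAO. Whether same-numbered sides are pairs was not tested. Per kilobase of the longest transcript, in place of all exons, Bcl2l11 stood at 2.66 and Bad at 28.3 CPM. Of the 5 genes most like Bcl2l1, 2 stayed among the 5 by Spearman's rank correlation, and 2 without both libraries that stood apart. Single counts as low as 4 for Bak1 and Bid limit what can be said of these genes.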
